A study of Rattus norvegicus with 6 samples.

Results

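The proteasome genes of the rat heart were taken as every gene symbol of the count table that begins with Psm followed by a letter from a to g. This rule found 50 of the 17487 symbols, and 45 of them had enough reads to be tested, of 9205 tested in all. RNA was measured in hearts of adult male Wistar rats, an outbred strain, with 1 library per animal. The doxorubicin group of 3 rats received doxorubicin hydrochloride, an anthracycline used in chemotherapy, into the tail vein at 3.75 mg/kg once a week for 4 weeks. The control group of 3 rats received 0.9% sodium chloride on the same schedule. The region of the heart and the interval after the last injection were not given in the sources used here. The p-values set the group difference against the variation among these 6 animals within their groups, as modelled over all tested genes.

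The proteasome is the barrel-shaped protease that degrades proteins tagged with ubiquitin. Its core particle stacks rings of alpha subunits, which form the gate, around rings of beta subunits, of which Psmb5, Psmb6 and Psmb7 carry the catalytic sites. A regulatory particle of ATPases (Psmc genes) and non-ATPase subunits (Psmd genes) captures, unfolds and feeds substrates into the core. Interferon gamma can induce replacement catalytic subunits, Psmb8 for Psmb5, Psmb9 for Psmb6 and Psmb10 for Psmb7, which form the immunoproteasome that cuts peptides for display on MHC class I. In the heart the proteasome removes damaged and misfolded contractile and metabolic proteins, and its activity has been a question in anthracycline cardiotoxicity.

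The promoters of interferon-inducible subunits are shown first because the immunoproteasome comparison turns on these genes. RefSeq promoter windows in the build GRCr8, from 250 bases before to 50 after the start used there, were found for 44 of the 50 members. They were searched on both strands for GAAA, any 2 bases and GAAA again, the core of the interferon-stimulated response element bound by interferon regulatory factors. It was present in 3.77% of all 27457 windows of this length, in 7 of the 44 member windows, and in those of Psmb8, Psmb10 and Psme2. The other member windows that held it were those of Psma4, Psmb3, Psmd7 and Psmg4, of which the first 3 belong to constitutive particles. Below, the matches are in capitals, and TTTC, any 2 bases and TTTC is the same motif on the opposite strand. The Psmb8 segment is chr20:4657026-4657075, the Psmb10 segment is chr19:50743293-50743405, the Psme2 segment is chr15:33052785-33052844 and the Tap1 segment is chr20:4668645-4668704, each on the minus strand of GRCr8.
Psmb8: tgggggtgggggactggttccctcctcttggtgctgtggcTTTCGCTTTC
Psmb10: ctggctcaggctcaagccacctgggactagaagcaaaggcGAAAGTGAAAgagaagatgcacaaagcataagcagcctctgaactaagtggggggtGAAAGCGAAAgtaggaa
Psme2: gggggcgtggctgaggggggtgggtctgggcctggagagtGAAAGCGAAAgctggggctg
Tap1: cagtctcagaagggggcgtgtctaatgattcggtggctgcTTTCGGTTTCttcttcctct
Psmb10 held 2 matches, at 73 and 17 bases before its start, and the Psmb8 match began 4 bases before its start. The Psmb9 window held no match. Psmb9 lies head to head with Tap1, the peptide transporter gene: their starts were 457 bases apart on opposite strands, and the Tap1 window held 1 match. A match is a description of the letters and says nothing of binding in these hearts.

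Of the 50 members, 4 were listed at 0 in all 6 libraries: Psmb6, Psmd10, Psmb11 and the symbol Psma3l. Psma8 had 1 count, in doxorubicin library 1. Psmb11 and Psma8 encode the thymus and testis forms of a beta and an alpha subunit. Psmb6, by contrast, encodes a catalytic subunit of the constitutive core, and Psmd10 an assembly chaperone known as gankyrin. CPM are counts scaled to a common library total with TMM factors. A count of 0 allows up to 3 counts, or 0.852 to 1.33 CPM depending on the library, and this limit covers counting error only. RefSeq gives Psma3l as another symbol of Psma3 and Psmb6l as another symbol of Psmb6. Psma3 itself, an alpha subunit, had only 13 to 30 counts per library.
RefSeq also names 52 pseudogenes or near copies of 19 members, up to 10 for Psmb3 and 3 for Psmb6. How reads that match several genes were counted was not given in the sources used here, so the levels of these members may be incomplete. Levels were not ranked between genes because no transcript lengths were given.

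No proteasome gene passed the test of a difference between doxorubicin and control hearts. With edgeR's quasi-likelihood test 0 of the 45 tested members had a Benjamini-Hochberg adjusted p under 0.05, against 0.0543% of all tested symbols, and the smallest adjusted p was 0.702. At an unadjusted p under 0.05 there were 0 members by edgeR, against 8.10% of all symbols. DESeq2 and limma voom also passed 0 members, adjusted or unadjusted. Groups free of overlap were seen for 0 of the 45 members, against 13.4% of all symbols.
Fitted log2 fold changes ran from -0.33 for Psma3 to 0.48 for Psmb9. Their median size, without regard to sign, was 0.0993 for the members and 0.209 for all tested symbols. The median log2 fold change was -0.05 for the members and 0.02 for all symbols.

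The precision of these estimates depends on the animals, the reads and the other genes, because edgeR's quasi-likelihood test draws each gene's variance towards a trend shared by all. Psmd11 thus had a within-group SD of 0.07 in log2 CPM and an SE of 0.17, and Psmb9 an SD of 0.50 and an SE of 0.29. The 95% interval of the fold change lay within 2-fold in either direction for 43 of 45 members, against 70.3% of all symbols. The exceptions were Psma3, whose interval ran from 0.451-fold to 1.401-fold on its few reads, and Psmb9, with 0.911-fold to 2.13-fold. A tighter bound of 1.5-fold held for 29 of 45 members, against 21.5% of all symbols. Members were also read more deeply, with a median level of 125 CPM against 31.5 CPM for all tested symbols. Within groups the log2 level of a member had a median SD of 0.22, against 0.29 for all symbols.

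**Figure D1:**
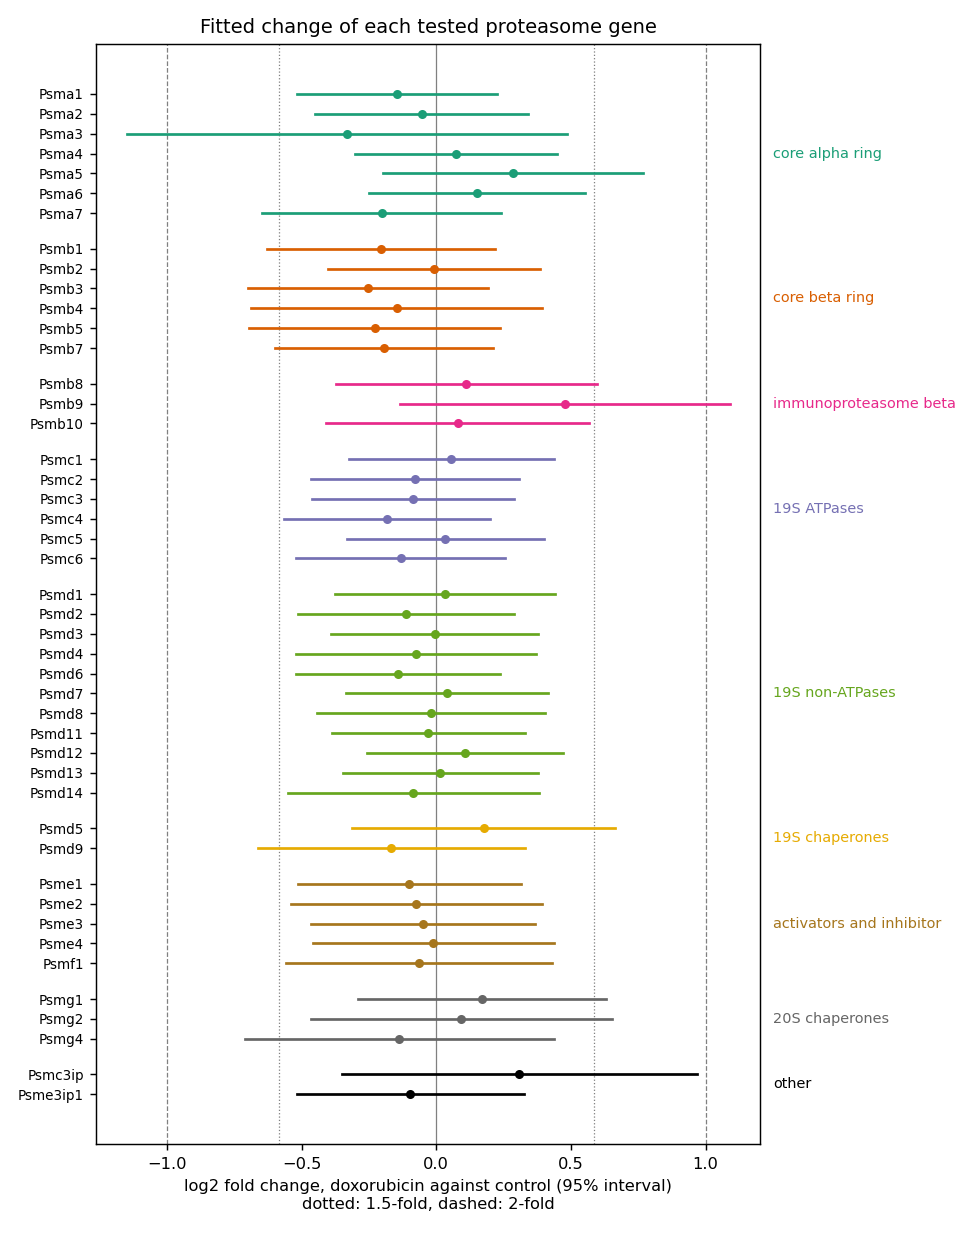
Fitted log2 fold change of doxorubicin against control (x axis) with its 95% interval for each of the 45 tested proteasome genes (rows, coloured by class). Every interval covers 0, the intervals of the regulatory particle genes lie within the dotted 1.5-fold lines, and those of Psma3 and Psmb9 cross a dashed 2-fold line.

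The alpha ring of the core had 7 tested genes, 3 above 0 and 4 below in log2 fold change. The highest was Psma5, with 70.3, 57.3 and 54.0 CPM in control libraries 1, 2 and 3 and 95.3, 71.5 and 54.5 CPM in doxorubicin libraries 1, 2 and 3. Doxorubicin library 1 alone stood clearly above the controls, and doxorubicin library 3 lay among them. The log2 fold change was 0.29 (SE 0.22), with an edgeR adjusted p of 0.778, and without doxorubicin library 1 it was 0.06. Psma6 showed the same library as its highest, at 311 CPM against 211 to 260 CPM in the other libraries. Psma7, an alpha subunit of the gate ring, had 352, 218 and 270 CPM in controls and 275, 247 and 207 CPM in treated libraries, with control library 1 the highest.
Psma3 was the lowest, at 7.64, 7.11 and 8.52 CPM in controls and 8.02, 4.06 and 6.48 CPM with doxorubicin. These values overlapped, and the log2 fold change was -0.33 (SE 0.38).

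The constitutive beta ring had 6 tested genes, and each was highest in control library 1. Psmb5, the chymotrypsin-like catalytic subunit, had 252, 170 and 170 CPM in control libraries 1, 2 and 3 and 211, 154 and 140 CPM in doxorubicin libraries 1, 2 and 3. Control libraries 2 and 3 lay inside the doxorubicin range. Its log2 fold change was -0.23 (SE 0.22), and the edgeR adjusted p was 0.823. Psmb7, the trypsin-like catalytic subunit, had 364, 255 and 262 CPM in controls and 260, 259 and 251 CPM with doxorubicin. Apart from control library 1 these 5 values differed little, and the log2 fold change was -0.19 (SE 0.19). Psmb3, a structural beta subunit and the lowest of the ring by fold change, had 147, 92.0 and 105 CPM in controls and 96.6, 110 and 82.5 CPM with doxorubicin (log2 fold change -0.25, SE 0.21).
Psmb2, the highest by fold change, had a mean of 89.0 ± 14.3 CPM in controls and 88.5 ± 4.05 CPM with doxorubicin (SD, n = 3). Psmb1 and Psmb4 had log2 fold changes of -0.21 and -0.15, and their groups also overlapped.

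Control library 1 stood apart from the other controls on the first principal component of all tested genes, at -43.3 against -4.83 to 26.6 for the other 5 libraries. It was also the highest library for 24 of the 45 members, against 26.7% of all symbols, and the lowest for 6 of the 45, against 27.5% of all symbols. Its red cell markers summed to 6899 CPM, against 668 to 2519 CPM in the other libraries, with Alas2 listed at 0. Nearly all of this sum was Hba-a1, Hba-a2 and Hbb, at 4150, 1879 and 831 CPM. The remaining marker, Slc4a1, was instead at 39.3 CPM there, below the 46.2 and 52.3 CPM of control libraries 2 and 3. The part of these markers in the member values was not tested. By class, control library 1 was the highest for 9 of 13 core genes, 8 of 17 regulatory particle genes and 0 of 3 immunoproteasome subunits. Its median difference from the mean of controls 2 and 3 was 0.57 in log2 CPM for the beta ring and 0.23 for the alpha ring. The same median was 0.14 for the ATPases, 0.09 for the non-ATPase subunits and -0.0017 for all tested symbols. For the immunoproteasome subunits it was 0.27, with 0.81 for Psmb9, 0.27 for Psmb8 and -0.19 for Psmb10.
The core median log2 fold change was -0.15 with all libraries and 0.02 without control library 1. Of the 45 members 29 were below 0 with all libraries and 17 without control library 1. The share of all symbols below 0 was 47.9% with all libraries. Scaling by library size only also gave 17 below 0, while it raised the median of all symbols to 0.10.

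**Figure D2:**
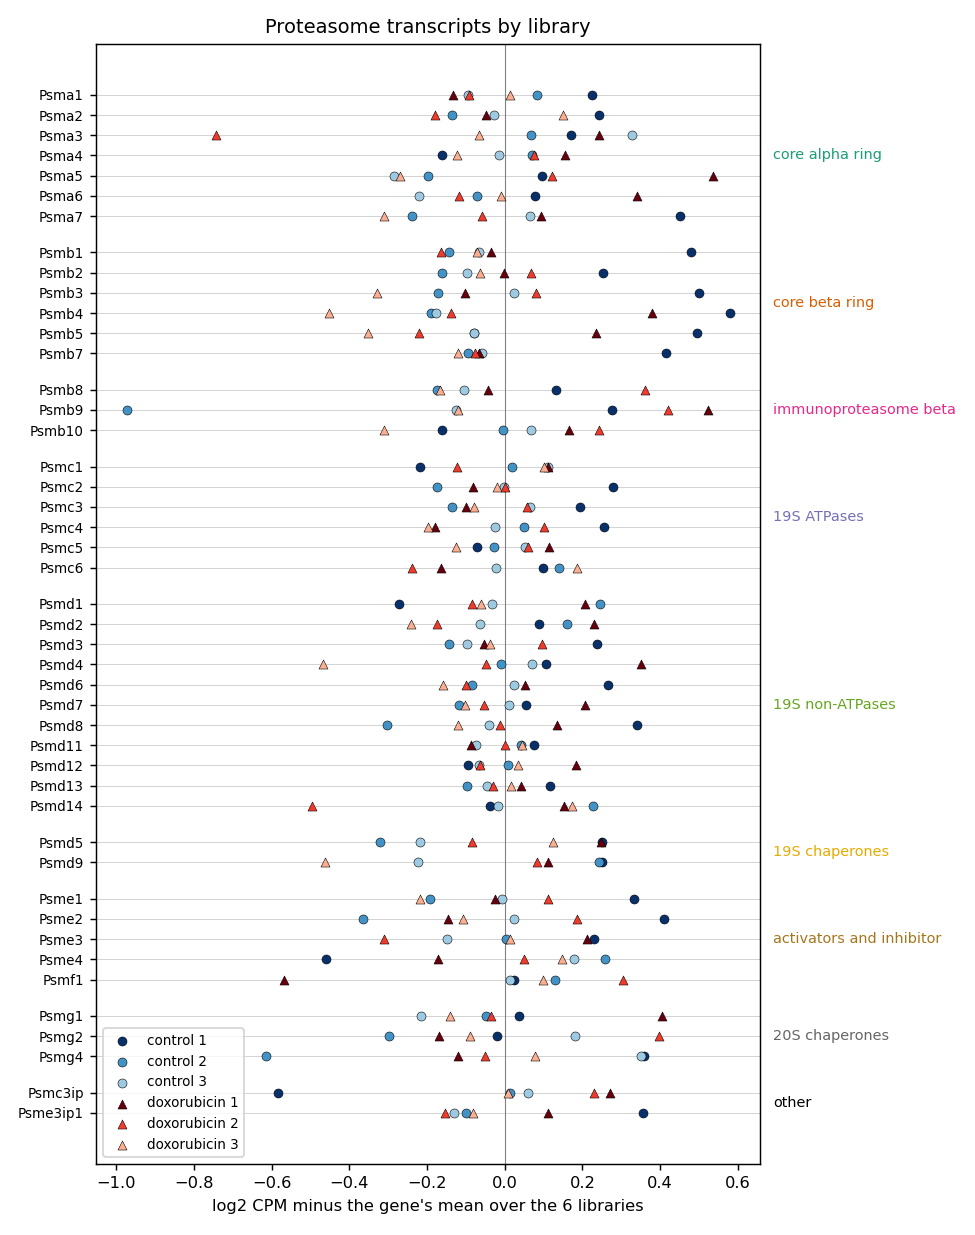
Level of each tested proteasome gene in the 6 libraries (points), as log2 CPM minus the gene's mean over the libraries, with genes in rows by class. Control library 1, the dark blue circle, is the rightmost point for all 6 beta ring genes, and in no row do the circles and triangles separate.

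The balance of core to regulatory particle transcripts was also highest in control library 1. The summed core CPM over the summed regulatory particle CPM was 0.810, 0.630 and 0.645 in control libraries 1, 2 and 3. With doxorubicin it was 0.693, 0.661 and 0.641 in libraries 1, 2 and 3. Control averaged 0.695 ± 0.0997 and doxorubicin 0.665 ± 0.0265 (SD, n = 3), with overlapping ranges.
Gene span moved with the difference of control library 1 from the other controls. Across all 8987 tested symbols with a span in RefSeq, Spearman's rho between span and this difference was -0.37, and across the 45 members it was -0.26. These are descriptions across genes of the same libraries, and genes are not independent replicates. Among the members with the longest spans, Psme4, Psmd1 and Psmd14 were lower in control library 1 than in the mean of controls 2 and 3, by -0.67, -0.38 and -0.14 in log2 CPM, and Psmb7, the next longest, was higher by 0.49. Psmb4, among the shortest, was higher by 0.76, while Psmb10 and Psmc3ip, also short, were lower by -0.19 and -0.58. The part of span or RNA quality in the class differences was not tested.

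**Figure D3:**
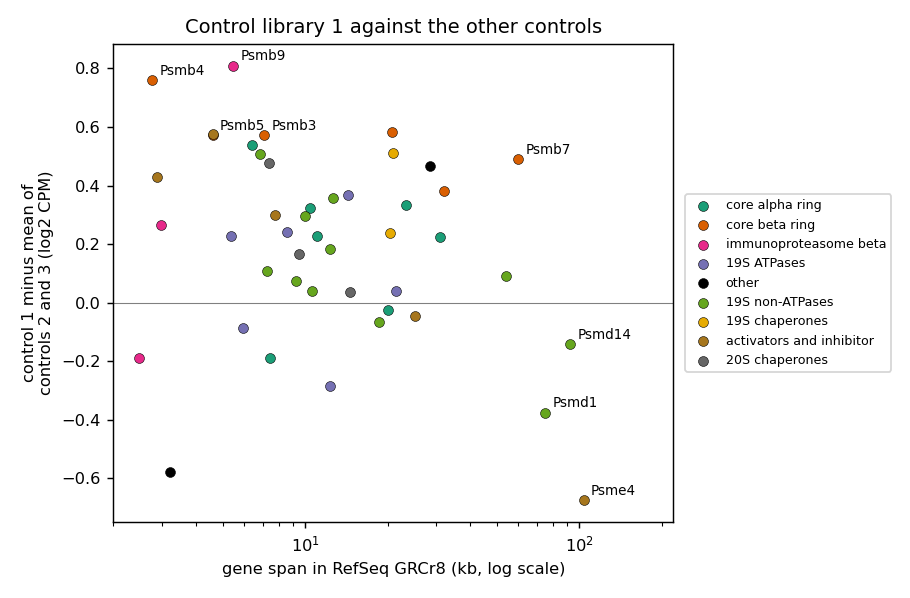
Difference between control library 1 and the mean of control libraries 2 and 3 in log2 CPM (y axis) against gene span in kb (x axis, log scale) for the 45 tested proteasome genes, coloured by class. All 6 beta ring genes lie above 0, and the long genes Psme4, Psmd1 and Psmd14 lie below 0.

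The immunoproteasome catalytic subunits had fold changes above 0 for 3 of 3 tested genes, none of them past the test. Their median log2 fold change was 0.11, against 0.02 for all symbols. Psmb9, the replacement for Psmb6, had 45.4, 19.1 and 34.4 CPM in control libraries 1, 2 and 3, and 53.9, 50.2 and 34.5 CPM in doxorubicin libraries 1, 2 and 3. Doxorubicin libraries 1 and 2 were above all controls, doxorubicin library 3 was level with control library 3, and control library 2 was the lowest by far on 43 counts. The log2 fold change was 0.48 (SE 0.29), with an unadjusted p of 0.117 and an adjusted p of 0.702 in edgeR. It was 0.23 without control library 2 and 0.77 without control library 1, and neither passed the adjusted threshold.
Psmb8, the replacement for Psmb5, had 35.1, 28.4 and 29.8 CPM in controls and 31.1, 41.2 and 28.6 CPM with doxorubicin. Only doxorubicin library 2 exceeded the controls. Its log2 fold change was 0.11 (SE 0.23), and it was -0.05 without doxorubicin library 2. Psmb10, the replacement for Psmb7, had 27.1, 30.2 and 31.8 CPM in controls and 34.0, 35.9 and 24.5 CPM with doxorubicin, with doxorubicin library 3 the lowest of the 6 libraries. Its log2 fold change was 0.08 (SE 0.23), and it was -0.01 without doxorubicin library 2.

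**Figure D4:**
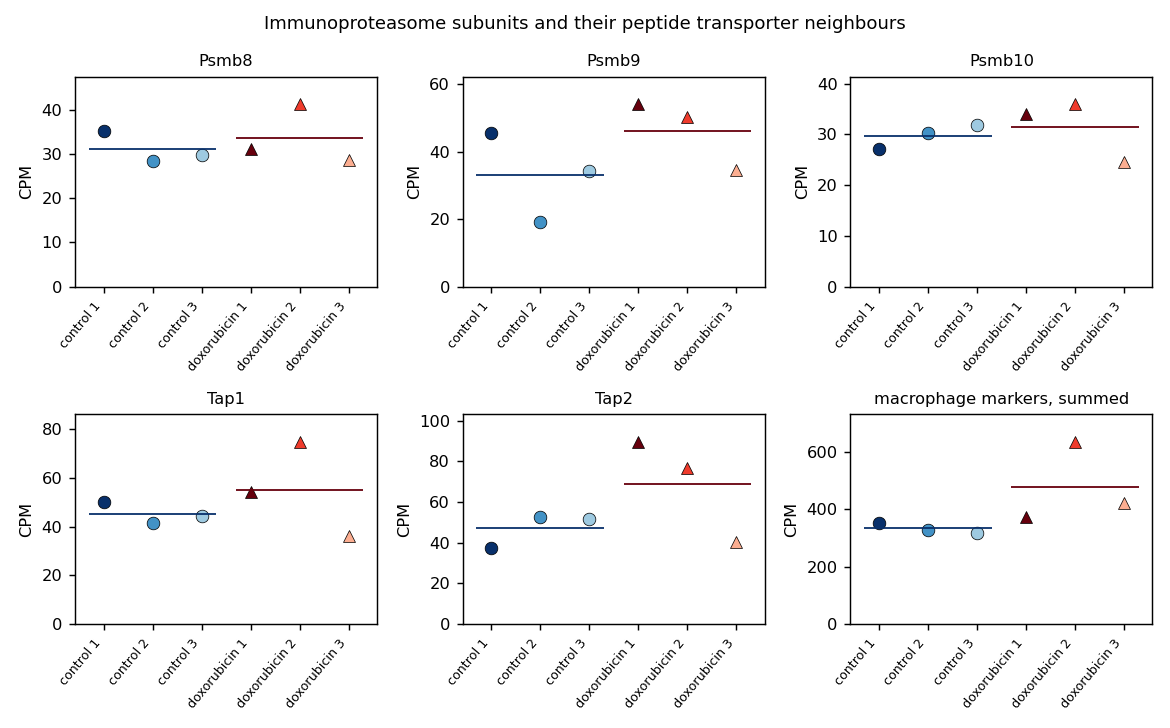
Level in CPM (y axes) of the immunoproteasome subunits Psmb8, Psmb9 and Psmb10, of the peptide transporter genes Tap1 and Tap2, and of the macrophage and monocyte markers summed, in each library (circles control, triangles doxorubicin, lines group means). Doxorubicin library 2 is the highest or second highest in each panel, and the groups overlap for each of the 5 genes.

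The share of immunoproteasome subunits among catalytic subunit reads compares each library with itself. In control libraries 1, 2 and 3, Psmb8, Psmb9 and Psmb10 together took 14.9%, 15.5% and 18.2% of the catalytic subunit reads. With doxorubicin they took 20.2%, 23.6% and 18.3% in libraries 1, 2 and 3. Control averaged 16.2% ± 1.77 and doxorubicin 20.7% ± 2.68 (SD, n = 3). The ranges did not overlap, but control library 3 (Wilson 95% interval 16.5 to 20.02) and doxorubicin library 3 (16.5 to 20.2) were alike within counting error. Psmb6 contributed no reads, so Psmb9 entered this share without its constitutive partner.
With the complete pairs alone the ranges overlapped. The share of Psmb8 in Psmb8 and Psmb5 reads was 12.2%, 14.3% and 14.96% in control libraries 1, 2 and 3. With doxorubicin it was 12.9%, 21.1% and 16.9% in libraries 1, 2 and 3. The highest was doxorubicin library 2 (Wilson 95% interval 18.1 to 24.5). The share of Psmb10 in Psmb10 and Psmb7 reads was 6.94%, 10.6% and 10.8% in controls and 11.6%, 12.2% and 8.89% with doxorubicin, lowest in control library 1, where Psmb7 was highest. No test was made of these shares, because they are scores over chosen genes.

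**Figure D5:**
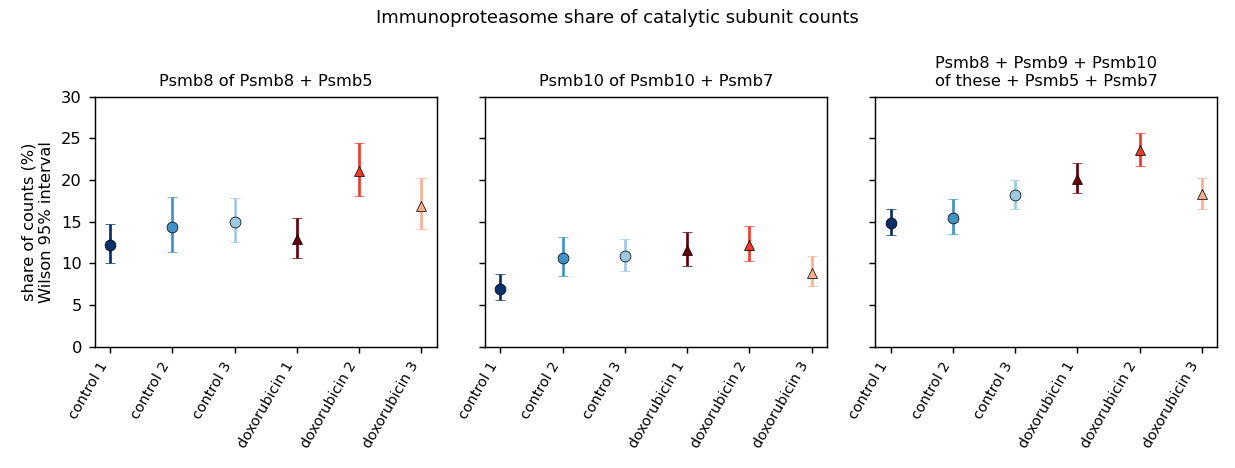
Immunoproteasome subunits as a percent of catalytic subunit reads (y axis) in each library, for the pairs Psmb8 with Psmb5 and Psmb10 with Psmb7 and for all catalytic subunits together, with Wilson 95% intervals for counting error. The groups overlap for each pair, and in the joint share control library 3 at 18.2% and doxorubicin library 3 at 18.3% are alike.

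Genes of the interferon gamma axis and peptide loading were read beside the immunoproteasome. Of 18 listed genes 16 were tested, 14 above and 2 below 0 in log2 fold change, and 0 passed the adjusted threshold in edgeR. The median was 0.23, and the groups overlapped for each of the 16. At an unadjusted p under 0.05 there was 1 of the 16, against 8.10% of all symbols. It was Gbp5, an interferon-induced GTPase, with 9.16, 13.8 and 13.3 CPM in controls and 13.5, 29.0 and 20.6 CPM with doxorubicin. Tap1, the neighbour of Psmb9, had 50.02, 41.3 and 44.3 CPM in controls and 54.2, 74.9 and 36.3 CPM with doxorubicin. Tap2, which encodes the other chain of the same transporter, had 37.4, 52.4 and 51.7 CPM in controls and 89.6, 76.4 and 40.4 CPM with doxorubicin. For Tap1, Tap2 and Psmb9 alike, doxorubicin libraries 1 and 2 lay above the controls, and doxorubicin library 3 did not lie above them all.
Outside the members, the genes whose levels were most like the mean of Psmb8, Psmb9 and Psmb10 over the 6 libraries were Daglb (Pearson's r 0.981), Ctsh (0.974), Pank4 (0.971), Ube2j2 (0.970) and Wdr53 (0.970), of 8565 candidates. Tap1 had an r of 0.882. With 6 libraries and so many candidates these values are a description.

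Immune cells carry the immunoproteasome constitutively, so their markers were summed in each library. The macrophage and monocyte markers were present for 15 of 16 genes, with Ptprc listed at 0. Of the 15 tested, 14 were above and 1 below 0 in log2 fold change, against 47.9% of all symbols below 0. Their sum was 317 to 354 CPM in control libraries and 375, 635 and 422 CPM in doxorubicin libraries 1, 2 and 3. Lyz2, which encodes lysozyme, had the most reads of them, at 87.5 to 116 CPM in controls and 126 to 225 CPM with doxorubicin. In edgeR 0 of the 15 passed the adjusted threshold. At an unadjusted p under 0.05 in edgeR there were 3, Cd163, Mrc1 and Lyz2, against 8.10% of all symbols. Groups were free of overlap for 2 of the 15, Mrc1 and Lyz2, against 13.4% of all symbols. T and NK cell markers summed to 34.4 to 37.0 CPM in controls and 30.1 to 40.6 CPM in treated libraries, and the defining genes Cd3d, Cd3e and Cd3g were each under 3 CPM. B cell markers summed to 0.295 to 2.29 CPM over all libraries. Neutrophil markers summed to 1.33 to 4.58 CPM in controls and 4.49, 13.1 and 23.6 CPM in treated libraries. Doxorubicin library 2 was the highest for the macrophage markers, for Psmb8 and for Psmb10. Psmb9 was instead highest in doxorubicin library 1, at 53.9 CPM, where the macrophage sum was the lowest of the treated libraries. The part of these cells in the immunoproteasome values was not tested. In bulk tissue, more cells of a type and more RNA per cell cannot be told apart.
The tissue carried its heart label: all 7 cardiomyocyte markers were tested, summing to 115693 to 128674 CPM in controls and 89152 to 104622 CPM in treated libraries. All 7 had log2 fold changes below 0, against 47.9% of all symbols. In edgeR 1 of the 7, the calcium release channel gene Ryr2, passed the adjusted threshold (adjusted p 0.044), against 0.0543% of all symbols. With library size only, with voom and in some runs with 1 library left out, 0 symbols passed, so Ryr2 did not pass there. Endothelial, fibroblast and smooth muscle markers had median log2 fold changes of 0.03, 0.01 and 0.04, and 0 of them passed the adjusted threshold.

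All 17 subunit genes of the regulatory particle with Psm names were tested, 6 above and 11 below 0. Their median log2 fold change was -0.03. Each of the 17 intervals lay within 1.5-fold in either direction. Among the ATPases, which drive unfolding, the highest was Psmc1, with 162, 191 and 204 CPM in controls and 204, 173 and 202 CPM with doxorubicin. The log2 fold change was 0.06 (SE 0.18). The lowest was Psmc4, with 150, 130 and 124 CPM in controls and 111, 135 and 110 CPM with doxorubicin, which is a log2 fold change of -0.18 (SE 0.18, edgeR adjusted p 0.832). Doxorubicin library 2 lay among the controls. The summed level of the 6 ATPases was 1163 ± 52.1 CPM in controls and 1122 ± 8.93 CPM with doxorubicin (SD, n = 3).
Among the 11 non-ATPase subunits the highest was Psmd12, a lid subunit, with 155, 167 and 158 CPM in controls and 188, 159 and 170 CPM with doxorubicin (log2 fold change 0.11, SE 0.17). The lowest was Psmd6, another lid subunit, with 165, 129 and 139 CPM in controls and 142, 128 and 123 CPM with doxorubicin (log2 fold change -0.14, SE 0.18). Both pairs of groups overlapped. The ubiquitin receptor Psmd4 had 212, 161 and 121 CPM with doxorubicin, values on both sides of the 166 to 179 CPM of the controls. Psmd14, the lid enzyme that cuts ubiquitin from substrates, had 41.2 CPM in doxorubicin library 2 against 56.5 to 68.0 CPM in the other libraries. The scaffold subunit Psmd11 had the smallest within-group SD of the 11 in log2 CPM, 0.07, at 138 to 155 CPM over all 6 libraries.

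The activators and the inhibitor had 5 of 5 log2 fold changes below 0, all of them -0.10 or closer to 0. Psme1 and Psme2 encode the chains of PA28, an interferon-inducible cap that opens the core gate. Psme1 had 696, 484 and 550 CPM in controls and 544, 597 and 475 CPM with doxorubicin, which is a log2 fold change of -0.10 (SE 0.19). Psme2 had 95.8, 56.0 and 73.3 CPM in controls and 65.2, 82.1 and 66.9 CPM with doxorubicin, which is a log2 fold change of -0.07 (SE 0.22). In both, control library 1 was the highest and doxorubicin library 2 the second highest, and without control library 1 the values were 0.06 and 0.14. Their intervals lay within 1.5-fold.
Psme4, which encodes the nuclear activator PA200, had 181, 298 and 282 CPM in controls and 221, 258 and 276 CPM with doxorubicin, with control library 1 the lowest. Its log2 fold change was -0.01 (SE 0.21). Psme3, the nuclear PA28 gamma chain, had a log2 fold change of -0.05. Psmf1, which encodes the inhibitor PI31, had 49.98 to 54.2 CPM in controls and 33.4, 61.2 and 53.1 CPM in treated libraries 1, 2 and 3, with the control values between the doxorubicin extremes.

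Assembly chaperones gave 3 values above and 2 below 0. Psmg1, a chaperone of the alpha ring, had 44.3, 41.8 and 37.2 CPM in controls and 57.1, 42.1 and 39.2 CPM with doxorubicin, with only doxorubicin library 1 above the controls (log2 fold change 0.17, SE 0.21). Psmg4 had 34.0, 17.3 and 33.8 CPM in controls and 24.4, 25.6 and 28.0 CPM with doxorubicin, all of the latter inside the control range. Psmg2, a partner of Psmg1, had 17.3 to 24.1 CPM in controls and 18.9 to 28.1 CPM with doxorubicin. Psmd5, a chaperone of the regulatory particle base, had 38.9, 26.2 and 28.1 CPM in controls and 38.8, 30.9 and 35.7 CPM with doxorubicin. Psmd9, another base chaperone, had 47.3, 47.1 and 34.1 CPM in controls and 43.0, 42.1 and 28.9 CPM with doxorubicin. The groups overlapped for each of these 5 genes.
The rule also took in genes that bind proteasome proteins without being subunits. Psmc3ip, a cofactor of meiotic recombination, had 7.64, 11.6 and 11.9 CPM in controls and 13.8, 13.4 and 11.5 CPM with doxorubicin (log2 fold change 0.31, SE 0.31). Psme3ip1, which encodes an interactor of PA28 gamma, had a log2 fold change of -0.10 (SE 0.20), with 95.1 CPM in control library 1 and 66.8 to 80.2 CPM in the other 5 libraries.

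Proteasome proteins outside the Psm names were read beside the members. Of 10 listed partners 7 were tested, 2 above and 5 below 0, with 0 past the adjusted threshold and 0 at an unadjusted p under 0.05 in edgeR. Pomp, the chaperone that matures the core, had 267, 160 and 178 CPM in controls and 180, 203 and 167 CPM with doxorubicin. Adrm1, a ubiquitin receptor of the regulatory particle, had 217, 121 and 144 CPM in controls and 152, 145 and 138 CPM with doxorubicin. In both, control library 1 was again the highest, and the other libraries overlapped. Groups were free of overlap for 1 of the 7, near the 13.4% of all symbols. This was Akirin2, which helps import proteasomes into the nucleus, at 58.8 to 76.8 CPM in controls and 56.3 to 58.4 CPM with doxorubicin (log2 fold change -0.20, SE 0.19).
Ubiquitin supply and shuttle genes were tested for 13 of 17, 4 above and 9 below 0, with 0 past the adjusted threshold and 0 at an unadjusted p under 0.05 in edgeR. Rps27a, Uba1 and Ubqln2 were listed at 0, although Rps27a and Uba1 serve every cell.

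Regulators of proteasome gene expression were tested for 11 of 14, 6 above and 5 below 0, and 0 passed the adjusted threshold in edgeR. Nfe2l1, which encodes the factor that raises proteasome genes when proteasome activity drops, was listed at 0 in all 6 libraries on its 3 rows of the table, so its level could not be read. Groups were free of overlap for 5 of the 11 tested, Nfe2l2, Foxo3, Ddi2, Stat3 and Zfand5, against 13.4% of all symbols. Nfe2l2, Foxo3 and Stat3 (log2 fold change 0.32) were higher with doxorubicin, and Ddi2 (-0.27) and Zfand5 (-0.29) were lower. At an unadjusted p under 0.05 there were 2 of the 11, against 8.10% of all symbols, both with higher values in doxorubicin hearts. Nfe2l2, the antioxidant response factor, had 51.9, 74.6 and 86.3 CPM in controls and 99.2, 86.4 and 108 CPM with doxorubicin, which is a log2 fold change of 0.46 (SE 0.21, edgeR adjusted p 0.594). The lowest doxorubicin value and the highest control value were nearly equal. Foxo3, a factor of the atrophy program, had 11.8, 10.2 and 8.52 CPM in controls and 13.2, 14.04 and 30.9 CPM with doxorubicin, with doxorubicin library 3 far above the rest (log2 fold change 0.94, SE 0.36, edgeR adjusted p 0.498).
The core of the antioxidant response element, TGACNNNGC, was searched in the same promoter windows on both strands. It stood in 8 of the 44 member windows, among them those of the core genes Psma3, Psmb2, Psmb5 and Psmb6, and in 12.2% of all 27457 windows. The gamma-activated site TTCNNNGAA stood in 4 of the 44 member windows and 8.68% of all windows, and of the interferon-inducible subunits only Psmb8 held it.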

How the data were processed

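Per the labels' protocols, heart RNA was extracted with TRIzol and spin columns, and Watchmaker mRNA libraries were sequenced on an Illumina NovaSeq instrument. The authors deposited raw read counts per gene row for the 6 libraries in 1 table, with no normalization. The submitters' processing notes name FastQC, Trimmomatic, STAR, HTSeq and the build mRatBN7.2, with no roles or versions. Counting mode, strand use and annotation are not given in the sources used here. Totals ranged from 2219685 to 3508282 counts per library, and intervals from counts cover counting error only.

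Rows of a symbol were summed, and each of the 50 members stood on 1 row. Testing used the quasi-likelihood F statistic of edgeR (version 4.0.16 in R 4.3.3), TMM scaling, robust dispersions and filterByExpr (minimum count 10, minimum total 15), fitted on all symbols with Benjamini-Hochberg adjustment over all of them and a threshold of 0.05. The standard error was the absolute log2 fold change divided by the square root of F, and 95% intervals used the t quantile at the fit's total degrees of freedom. CPM values used TMM library sizes, and log2 CPM a prior count of 2. The fit and its intervals were tested on counts simulated gene by gene from the fit's own means and dispersions, without an outlying library. That test therefore does not bear on the departure of control library 1. Wilson intervals were computed with scipy 1.17.1. Spans, synonyms and promoters came from RefSeq, build GRCr8, whose coordinates are not those of the counting, and 49 of 50 symbols matched.

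The members and lists were chosen with earlier results of these data known. Named members were Psmb5 to Psmb10, Psme1 and Psme2, the highest and lowest fold change in each class, any member at an unadjusted p under 0.05 or with groups not overlapping, and untested members. Psma6, Psma7, Psmb1, Psmb4, Psmd1, Psmd4, Psmd11, Psmd14, Psme3, Psmf1, Psmg2, Pomp, Adrm1, Akirin2, Tap1, Tap2 and Lyz2 were named after their values were seen. Alternatives were median-of-ratios, upper-quartile and library-size scaling, no filter, a mean CPM of at least 5, DESeq2 1.42.0, limma 3.58.1 voom without and with sample quality weights, unsummed rows, a replicate block and leaving out each library.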

Additional observations from a re-analysis of the deposited data

How the results depend on the processing

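No member passed the adjusted threshold under any alternative run, and the smallest adjusted p of a member over all of them was 0.473, for voom with sample quality weights. Against 5 symbols of the whole table past the threshold, library size only gave 0, no filter 61, a mean CPM of at least 5 gave 1, DESeq2 74, voom 0, voom with sample quality weights 14 and the replicate block 13, and leaving out 1 library gave 0 to 35. Members at an unadjusted p under 0.05 numbered 0 in the test above, 1 with sample quality weights (Psmb9) and 0 to 2 when 1 library was left out: Psmb9 without control library 1, and Psma5 and Psmb9 without doxorubicin library 3. Members below 0 numbered 29, 17 with library size only, and 17 to 29 with 1 library left out. Library size only moved the regulatory particle median to 0.058, below the median of all symbols under that scaling, 0.10, and relative to the median of all symbols 16 of 45 members lay above it, against 15 before. Leaving out 1 library moved the core median between -0.26 and 0.018, the regulatory particle median between -0.068 and 0.022 and the immunoproteasome median between -0.015 and 0.24. The difference in immunoproteasome share, 4.50 percentage points, was 3.05 to 5.70 with 1 library left out and 2.01 with complete pairs only, an alternative chosen after seeing the data. The mean of the pairs' own shares could use only the 2 complete pairs, since Psmb6 had no counts, and gave 2.28. Each member stood on 1 row, so unsummed rows changed no member's counts.

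Signs were recomputed gene by gene for the 22 members named by the rule, and 11 of them turned in at least 1 alternative. Psmb2 was 0.086 with library size only, 0.0046 at a mean CPM of at least 5, 0.0014 with voom, 0.092 with quality weights and 0.00086 with the replicate block. Psme4 was 0.059 with library size only, 0.017 with voom and 0.016 with the block. Psme2 was 0.026 with library size only and 0.056 with quality weights, which also turned Psmc1 to -0.037, Psmd9 to 0.00033, Psme1 to 0.016 and Psme3ip1 to 0.021. With 1 library left out the ranges were -0.074 to 0.13 for Psmb2, -0.049 to 0.23 for Psmb8, -0.015 to 0.24 for Psmb10, -0.028 to 0.14 for Psmc1, -0.31 to 0.0078 for Psmd9, -0.20 to 0.063 for Psme1, -0.23 to 0.14 for Psme2, -0.20 to 0.13 for Psme4, -0.0073 to 0.29 for Psmg1, -0.37 to 0.011 for Psmg4 and -0.19 to 0.084 for Psme3ip1. The cause of these changes was not tested.

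The replicate numbers were taken from the titles. Deviations of same-numbered libraries from their group means correlated at -0.19 to 0.021 over 3 pairs. With only 3 libraries per group, these values cannot decide whether the numbers mark paired animals or batches. With the replicate block 0 members passed. The lowest counts in a library were 13 for Psma3 and 20 for Psmc3ip, the members read least deeply among those tested.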
